A study of Rattus norvegicus with 6 samples.

Results

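The 300 brightest RNA cluster probes of rat plasma exosomes are described here, out of 57102 cluster probes on the array and 10460 that were well above background on all 6 arrays. A cluster probe is a 60-base oligonucleotide whose name begins with rclstr and which stands on the array for a group of rat RNA sequences. The 300 were taken by rank of the mean level over all 6 arrays, SAH and sham together, so their brightness is what chose them and is not a result. A level is the log2 processed signal of a probe minus the 75th percentile of the same array, and a level of 0 is that percentile. Probes hybridise with different strength, so the order of levels is an order of signal and not of RNA amounts. No probe carried a gene name or a genome position (0 of 60148), and the probes are called by their array names.

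The RNA came from exosomes in the plasma of Sprague-Dawley rats aged 8 to 12 weeks, with blood drawn from the abdominal aorta on day 3. In the SAH group (3 samples, labelled biological replicates) subarachnoid haemorrhage had been produced by piercing the wall of the internal carotid artery with an endovascular approach, and in the sham group (3 samples) the operation was the same but the artery was not punctured. Exosomes were pelleted by ultracentrifugation, total RNA was isolated with Trizol, and cDNA was primed with a run of thymidines and labelled with Cy3, 1 sample per array. A pellet of this kind can also hold other particles of plasma, and the markers of exosomes, blood cells and brain could not be checked because no probe carried a gene name.

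Exosomes are small membrane vesicles that cells release after a compartment of their endosomes fuses with the cell surface, and they carry fragments of messenger RNA, long noncoding RNA, ribosomal RNA and small RNA. Many RNA molecules hold stretches of repeated sequence, either short units in a row or copies of mobile elements that are scattered through the genome. A probe with such a stretch can bind labelled cDNA from many transcripts. Labelled cDNA is complementary to the RNA, so a probe's letters are read here in the sense of the RNA it binds.

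The sequences of the 300 probes fell into 4 classes, which were set after the values had been seen. Simple repeats held a run of at least 12 bases made of a unit of at most 4 bases. Dispersed sequences held a run of at least 20 bases found in at least 10 of the 33469 RefSeq windows of rat genes (assembly GRCr8, 250 bases before to 50 after a gene start, either strand). C/T-rich probes held a run of at least 8 bases of C and T, or the letters CCTCC. Each probe went to the first class in this order whose rule it met, so simple repeats and dispersed probes can hold such runs too. The remaining probes are called the other members. The first sequences are simple repeats and C/T-rich probes, shown because these classes hold most of the 300, and capitals mark the longest run of C and T or, in rclstr_14307_2484_13, the run of CA.

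rclstr_39676_93_26: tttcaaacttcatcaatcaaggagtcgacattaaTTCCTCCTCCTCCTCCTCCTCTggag

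rclstr_14307_2484_13: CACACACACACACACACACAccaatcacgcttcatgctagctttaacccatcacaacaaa

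rclstr_21783_2281_12: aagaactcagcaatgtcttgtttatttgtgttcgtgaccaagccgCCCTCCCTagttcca

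rclstr_25953_282_26: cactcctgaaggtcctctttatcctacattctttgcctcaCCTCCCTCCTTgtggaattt

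rclstr_27176_1753_10: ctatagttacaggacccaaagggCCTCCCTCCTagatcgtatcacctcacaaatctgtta

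rclstr_50770_305_14: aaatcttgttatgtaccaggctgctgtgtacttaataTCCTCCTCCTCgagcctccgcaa

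rclstr_25103_303_16: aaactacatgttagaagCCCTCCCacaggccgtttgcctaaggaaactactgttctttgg

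rclstr_9452_15_5: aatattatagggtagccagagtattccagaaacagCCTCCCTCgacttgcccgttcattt

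rclstr_48948_532_105: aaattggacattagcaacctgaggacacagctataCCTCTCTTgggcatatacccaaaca

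The dispersed probes below are shown because they share sequence with each other. In the first 3, capitals mark the longest run shared with rclstr_52055_545_14394 or, in that probe, with rclstr_58110_401_15646. The fourth, rclstr_59473_170_466, holds such a sequence on the opposite strand, and its capitals mark the run shared with the reverse complement of rclstr_62864_273_23918. In the last pair, capitals mark the 46 bases that both hold.

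rclstr_58110_401_15646: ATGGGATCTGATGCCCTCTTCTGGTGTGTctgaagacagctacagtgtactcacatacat

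rclstr_52055_545_14394: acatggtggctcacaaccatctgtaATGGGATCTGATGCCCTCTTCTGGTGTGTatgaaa

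rclstr_62864_273_23918: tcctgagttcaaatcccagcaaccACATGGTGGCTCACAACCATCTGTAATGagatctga

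rclstr_59473_170_466: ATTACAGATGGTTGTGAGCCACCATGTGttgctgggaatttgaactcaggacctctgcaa

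rclstr_54399_162_5978: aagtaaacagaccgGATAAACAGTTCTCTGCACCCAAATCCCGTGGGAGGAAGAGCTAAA

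rclstr_54594_171_2814: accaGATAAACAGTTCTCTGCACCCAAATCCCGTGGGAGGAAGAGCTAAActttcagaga

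The other members shown are those with the highest signal and those with the smallest p between SAH and sham. Capitals mark, in turn, the 40 bases that rclstr_31958_1136_14 shares with the reverse complement of the first 50 bases of Rn45sl1 or Rn45sl2, the 57 bases shared by rclstr_55634_449_1023 and rclstr_54729_496_23, and the letters AATAAA in rclstr_65818_197_40. The remaining 2 have no capitals.

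rclstr_31958_1136_14: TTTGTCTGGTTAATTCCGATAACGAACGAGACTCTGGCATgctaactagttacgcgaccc

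rclstr_50751_562_26: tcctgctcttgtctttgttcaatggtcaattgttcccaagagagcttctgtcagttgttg

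rclstr_55634_449_1023: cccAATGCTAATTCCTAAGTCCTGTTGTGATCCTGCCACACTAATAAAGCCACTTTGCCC

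rclstr_54729_496_23: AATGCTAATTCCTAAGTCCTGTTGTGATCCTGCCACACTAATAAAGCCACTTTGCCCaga

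rclstr_65818_197_40: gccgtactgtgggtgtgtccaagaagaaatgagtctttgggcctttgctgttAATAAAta

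rclstr_63902_242_24: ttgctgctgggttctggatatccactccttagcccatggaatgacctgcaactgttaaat

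Repeats and C/T-rich stretches made up most of the 300 probes. C/T-rich probes were 164 of the 300 (54.7%), against 7905 of all 57102 cluster probes (13.8%). Dispersed sequences were 55 (18.3%, against 0.172% of all cluster probes), simple repeats 31 (10.3%, against 0.303%) and other members 50 (16.7%, against 85.7%). The members were drawn from the 10460 cluster probes well above background on all 6 arrays. Of those, 31.1% were C/T-rich, 0.851% dispersed, 0.918% simple repeats and 67.1% other. Among the next 300 probes by rank, 208 were C/T-rich, 13 dispersed, 10 simple repeats and 69 other. These shares describe probes chosen by signal, and no test was made of them.

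The share of cluster probes that were members rose with the length of the longest run of C and T. It was 0.149% of the probes whose longest run had at most 4 bases, 0.260% at 5 to 6 bases, 0.600% at 7 to 8, 2.57% at 9 to 10, 5.48% at 11 to 12 and 19.1% at 13 or more. For runs of A and G, the same letters read on the opposite strand, the share in the same bins was 0.715%, 0.478%, 0.321%, 0.306%, 1.09% (11 of 1010 probes) and 0.442% (2 of 452 probes), with no such order. The share of cluster probes well above background on all 6 arrays was 12.8% for the shortest and 74.8% for the longest C/T runs. For A/G runs this share was also higher in the longest bin, at 41.6%, than in the shortest, at 18.03%. CCTCC was present in 39.7% of members and 4.53% of all cluster probes, and its reverse complement GGAGG in 5.33% and 4.82%. CTCTCT was present in 12.0% of members and 1.98% of all cluster probes, and AGAGAG in 2.00% and 2.37%. The letters AATAAA are part of the signal for the poly(A) tail in many messenger RNAs. They were present in 3.67% of members and 1.77% of all cluster probes. Their reverse complement TTTATT was likewise more frequent in members, at 3.00% and 1.73%.

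The overall base content of the members showed less of this than the runs did. Mean C was 27.0% in members and 22.3% in all cluster probes, mean T 30.4% and 26.9%, mean G 18.4% and 22.7%, and mean A 24.2% and 28.0%. The mean GC content was 45.3% and 45.1%. It ran from 40% to 46.7% in every cluster probe, so the probe design left little room for it to differ.

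Sequences found at many gene starts were often bright. Of the 113 cluster probes with a 20-base run in at least 10 of the RefSeq windows, 104 were well above background on all 6 arrays and 66 were members (58.4%). Of the 1747 with such a run in 1 to 9 windows, 41 were members (2.35%), and of the 55242 with none, 193 (0.349%). Among the 66 were the 55 dispersed members, and the rest were simple repeats.

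The last number in the probe names, whose meaning no source used here gives, followed the brightness of the probes. All 16 cluster probes whose last number was at least 10000 were members. So were 41 of the 499 probes with a last number of 1000 to 9999 (8.22%) and 38 of the 200 with 100 to 999 (19.0%). For last numbers of 10 to 99 the share was 0.504% (174 of 34523), and for those below 10 it was 0.142% (31 of 21864). Of the 16, 13 were dispersed, 2 simple repeats and 1 C/T-rich. This was looked at after the values had been seen.

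The members held a large part of all signal. Their summed processed signal made up 19.1%, 48.1% and 36.4% of the sum over all noncontrol probes in sham (replicates 1, 2 and 3) and 50.3%, 53.6% and 48.6% in SAH. On sham replicate 1, 3 probes outside the 300, each brighter than every member there, held 55.2% of the sum, and on sham replicate 3 a single such probe held 7.10%. The other 4 arrays had no such probe. The median level of the members was 4.69, 4.84 and 4.54 on the sham arrays and 4.88, 5.17 and 4.99 on the SAH arrays. Each SAH median was above each sham median.

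Membership was much the same from array to array apart from sham replicate 3. Taken alone, the sham arrays had 280, 289 and 225 of the members among their own 300 brightest kept cluster probes, and the SAH arrays had 288, 276 and 269. At the lower edge the levels ran closely together, with 3.76 and 3.75 for the last members, rclstr_64967_129_14 and rclstr_57569_197_20, and 3.75 and 3.74 for the first probes outside, rclstr_54397_160_108 and rclstr_39279_593_5. Across the 300 probes (no independent replicates), the Pearson correlation of sham replicate 3 with the other arrays ran from 0.403 to 0.729. The other pairs of arrays ran from 0.865 to 0.984, and the highest value was between sham replicate 2 and SAH replicate 1. Sham replicate 3 therefore stands apart among the members, and differences of members that move by over 1.5 times without it are given both ways. Sham replicate 1 was alone on 1 of the 2 slides, so slide 2 held 2 sham and 3 SAH arrays.

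The brightest probe, rclstr_31958_1136_14, had levels of 8.74, 9.77 and 9.03 in sham and 9.78, 10.26 and 9.74 in SAH, each in the order of the replicate numbers, as for all levels that follow. Sham replicate 2 lay above the lowest SAH array, so the groups overlapped. Its letters from base 1 matched the reverse complement of the start of Rn45sl1 and Rn45sl2, symbols that RefSeq gives to loci similar to the gene of the ribosomal RNA precursor. The difference was 0.75 (SE 0.33, limma adjusted p = 0.331). The match lies on the strand opposite to those gene models. By the shared run that defines dispersed sequences, however, the probe reached 4 RefSeq windows on the same strand and 2 on the opposite strand. The match therefore does not settle the strand of the RNA it binds, and which RNA that is was not tested.

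In second place, the simple repeat rclstr_39676_93_26, with its run of CCT units, gave 9.21, 8.80 and 9.41 on the sham arrays and 8.80, 8.85 and 8.56 on the SAH arrays. Sham replicates 1 and 3 were highest, and sham replicate 2 lay within the SAH range. The difference was -0.40 (SE 0.29, limma adjusted p = 0.48), or -0.27 without sham replicate 3. It was positive with quantile normalization and in the deposited value table, at 0.46 and 0.81.

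Of the 10 brightest members, 7 were dispersed probes of a single family and are described with it, and the tenth place was held by the last of these, rclstr_62950_102_23583. At rank 9, rclstr_50751_562_26 matched no RefSeq window. Its levels were 7.09, 8.31 and 6.10 on the sham arrays and 7.42, 8.09 and 7.17 on the SAH arrays, with the highest and the lowest value both in sham. The difference of 0.40 (SE 0.49, limma adjusted p = 0.68) was smaller than the spread between sham arrays (SD 1.11, n = 3), and it was -0.14 without sham replicate 3.

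Shared sequence joined 63 of the 300 members into 17 groups, with members joined where 2 probes had at least 20 identical bases on the same strand. Only 2 groups had at least 5 members, with 18 and 9. Probes in a group can bind the same labelled molecules, and their values are not separate evidence. No circRNA database probe (0 of 3046) shared 20 bases with a member on either strand.

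The largest group held 18 dispersed probes, among them 7 of the 10 brightest members, and every one was lowest on sham replicate 3. The median level of the group was 6.95, 7.26 and 5.38 on the sham arrays and 7.54, 7.57 and 7.46 on the SAH arrays. Its brightest probe, rclstr_58110_401_15646, gave 7.73, 8.09 and 6.24 in sham and 8.34, 8.29 and 8.25 in SAH. All 3 SAH arrays of this probe lay above the sham arrays, with sham replicate 2 just below them and sham replicate 3 far below. The difference was 0.94 (SE 0.43, 1.92-fold, limma adjusted p = 0.34), or 0.38 without sham replicate 3. Over the 18 probes the differences ran from 0.89 to 1.14 with a median of 0.97, or 0.40 without sham replicate 3. For 17 all SAH arrays lay above all sham arrays, beside 9.24% of all probes tested.

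Members of the largest group were found at gene starts on both strands. Each shared a 20-base run with 23 to 139 of the RefSeq windows, and together they reached 89 windows on the same and 108 on the opposite strand. Its member rclstr_52055_545_14394 holds, in order, the shared runs of both rclstr_62864_273_23918 and rclstr_58110_401_15646, so the 3 probes lie along a single longer sequence. Their levels moved alike over the arrays: rclstr_52055_545_14394 gave 7.79, 7.99 and 6.15 in sham and 8.19, 8.48 and 8.11 in SAH. The probe rclstr_62864_273_23918 gave 7.49, 7.77 and 5.95 in sham and 7.93, 8.10 and 7.97 in SAH. The remaining 4 of the 10 brightest, rclstr_56258_452_5301, rclstr_59839_345_16590, rclstr_65943_130_22332 and rclstr_62950_102_23583, had differences of 0.97, 0.97, 0.89 and 0.91, or 0.40, 0.45, 0.34 and 0.39 without sham replicate 3.

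The opposite strand of this sequence was also bright. A set of 3 probes formed a group of their own whose brightest member, rclstr_59473_170_466, gave 6.11, 6.16 and 4.66 in sham and 6.30, 6.64 and 6.31 in SAH. The SAH arrays lay above the sham arrays in all 3 probes of that group, beside 9.24% of all probes tested. The median difference of the 3 was 0.78 (0.30 without sham replicate 3).

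In the group of 9, every probe was above all sham arrays on all SAH arrays, beside 9.24% of all probes tested. The group was lowest on sham replicate 3 in every probe. Its brightest probe, rclstr_54399_162_5978, gave 5.41, 5.998 and 3.999 in sham and 6.18, 6.18 and 6.25 in SAH, a difference of 1.07 (SE 0.44, 2.10-fold, limma adjusted p = 0.31), or 0.50 without sham replicate 3. The SAH arrays of this probe were close together (SD 0.04, n = 3), while the sham arrays were spread widely (SD 1.03, n = 3). The 9 differences ran from 1.07 to 1.25 with a median of 1.12, and this median was 0.56 without sham replicate 3. The group's runs were present in 24 to 30 RefSeq windows per probe, together 1 on the same and 31 on the opposite strand. Another 6 cluster probes outside the 300 shared a 20-base run with it.

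No member passed the test between SAH and sham. Over the 17158 probes tested, limma with Benjamini-Hochberg adjustment called 0 (0% of those tested), and the smallest adjusted p among the members was 0.272. At an unadjusted p under 0.05, 90 members were higher in SAH and 0 lower, where the background over all tested probes was 14.9%, made up of 8.83% higher and 6.04% lower. With at least a 2-fold difference in addition, 70 members were higher and 0 lower, with a background of 5.74% and 1.14%. The 70 are 23.3% of the members. All 3 SAH arrays lay above all 3 sham arrays in 110 members (36.7%), with a background of 9.24%, and below them in 11 (3.67%), with a background of 13%.

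The median difference over the members was 0.40, with 103 negative and the rest positive, beside -0.17 over all tested probes and -0.26 over the 10460 kept cluster probes. For the 300 probes ranked next, the median was 0.05. At 2-fold and unadjusted p under 0.05, 46 of them (15.3%) were higher and 1 lower, with a background of 5.74% and 1.14%. Without sham replicate 3 the members' median was 0.26 and that of the next 300 was 0.13. The members' count by this rule then fell from 70 to 5. It was 113 without sham replicate 2, 94 without sham replicate 1, 31 without SAH replicate 2 and 28 without SAH replicate 3, all higher in SAH. The share over all probes tested by this rule is not given for these fits, so these counts, the 5 included, stand without a background. Without sham replicate 2, 8 members were called at an adjusted p under 0.05, beside 640 (3.73%) of all 17158 probes tested. Normexp background correction called 82 members, all higher, beside 436 (2.54%) of all probes tested, at adjusted p-values of 0.042 to 0.0499. On slide 2 alone, which is the fit without sham replicate 1, the members' median was 0.39.

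Of the 4 classes, 2 carried most of the higher counts. Dispersed members had class medians of 5.70, 6.09 and 4.39 on the sham arrays and 6.19, 6.32 and 6.25 on the SAH arrays. All 55 differences were positive, with a median of 0.97 and a range from 0.27 to 1.25. In 51 (92.7%) all SAH arrays lay above all sham arrays, beside 9.24% of all probes tested. All 55 were lowest on sham replicate 3, and without it their median difference was 0.44. Their SD over the 3 SAH arrays had a median of 0.09, against 0.94 over the 3 sham arrays.

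The other members had class medians of 4.24, 4.51 and 2.98 in sham and 4.64, 5.25 and 4.93 in SAH. Of these 50, 44 had a positive difference. At 2-fold and unadjusted p under 0.05, 36 (72%) were higher, beside 5.74% of all probes tested. In 32 (64%) all SAH arrays lay above all sham arrays, beside 9.24% of all probes tested. The median difference of the 50 was 1.20, and it was 0.66 without sham replicate 3. The 5 members with the smallest p and a higher level in SAH were 4 of these and 1 C/T-rich probe.

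The smallest p was that of rclstr_55634_449_1023, with levels of 2.92, 4.43 and 2.87 in sham and 4.56, 5.53 and 4.87 in SAH. Sham replicate 2 was just below the lowest SAH array, and the other sham arrays were far lower. The difference was 1.58 (SE 0.44, 2.99-fold, limma adjusted p = 0.272). The probe rclstr_54729_496_23, which holds 57 of the same bases, gave 2.83, 4.58 and 2.96 in sham and 4.76, 5.46 and 4.90 in SAH. Both hold AATAAA within the shared run.

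The member with the largest spread over the 6 arrays, rclstr_65818_197_40 (SD 1.24), gave 2.40, 4.25 and 2.21 in sham and 4.37, 5.21 and 4.59 in SAH. Its difference was 1.77 (SE 0.50, 3.42-fold), and it too holds AATAAA near its end. In rclstr_63902_242_24 the levels were 2.54, 4.34 and 2.18 in sham and 4.29, 5.20 and 4.59 in SAH. Here sham replicate 2 lay above SAH replicate 1, so the groups overlapped. The difference of 1.67 (SE 0.51, limma adjusted p = 0.272) did not pass the test. In these 4 probes sham replicate 2 was close to the SAH arrays, while in the dispersed members it was sham replicate 1 and 2 together that lay above replicate 3.

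C/T-rich members varied less over the arrays than dispersed and other members, and about as much as simple repeats. Their class medians were 4.61, 4.66 and 4.83 on the sham arrays and 4.63, 4.79 and 4.67 on the SAH arrays, and sham replicate 3 was the highest of all. Of the 164, 91 were highest on sham replicate 3 and 54 were lowest on it. The median difference was -0.10, with 74 positive and 90 negative. It was 0.10 when the scaling percentile was taken over all probes, 0.14 with normexp, and 0.05 without sham replicate 3, so it has no settled direction. The SD over the 6 arrays had a median of 0.31, against 0.81 in dispersed, 0.33 in simple repeat and 0.92 in other members. All SAH arrays lay above all sham arrays in 25 of the 164 (15.2%) and below them in 11 (6.71%). The background over all probes tested was 9.24% and 13%.

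The letters within the C/T-rich members went with different patterns. In the 89 that held CCTCC but not CTCTC the median level was 4.67, 4.67 and 5.05 in sham and 4.63, 4.78 and 4.52 in SAH. Of these 89, 69 were highest on sham replicate 3, and the median difference was -0.26, or -0.08 without sham replicate 3. In the 35 that held CTCTC but not CCTCC the medians were 4.34, 4.50 and 4.23 in sham and 4.58, 4.78 and 4.79 in SAH, and the median difference was 0.28, or 0.21 without sham replicate 3. The 22 with both had a median difference of 0.15, and the 18 with neither 0.30 (0.11 and 0.23 without sham replicate 3).

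Bright examples of the CCTCC kind were rclstr_21783_2281_12, rclstr_25953_282_26 and rclstr_27176_1753_10. The last gave 6.65, 6.61 and 7.24 in sham and 6.52, 6.54 and 6.15 in SAH, so that all sham arrays lay above all SAH arrays. The difference was -0.43 (SE 0.30, limma adjusted p = 0.47). For rclstr_21783_2281_12 and rclstr_25953_282_26 the groups overlapped, with differences of -0.38 and -0.29. Without sham replicate 3 the 3 differences were -0.23, -0.21 and -0.11, with rclstr_27176_1753_10 first.

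The 5 members with the smallest p and a lower level in SAH were all C/T-rich, and none passed even the unadjusted threshold. The first, rclstr_25103_303_16, gave 4.63, 4.66 and 5.31 in sham and 4.48, 4.12 and 4.16 in SAH, a difference of -0.61 (SE 0.30, limma adjusted p = 0.35), or -0.39 without sham replicate 3. In rclstr_9452_15_5 the levels were 4.43, 4.20 and 4.53 in sham and 3.89, 3.94 and 3.80 in SAH. This probe had the smallest sham spread of the 5 (SD 0.17, n = 3), and its difference was -0.51 (SE 0.27). The others, rclstr_17155_847_5, rclstr_62359_16_17 and rclstr_52791_59_16, had differences of -0.61, -0.64 and -0.61, and each was highest on sham replicate 3. Without that array they were -0.39, -0.36 and -0.27.

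Some C/T-rich members had levels in SAH above those in sham. The probe rclstr_48948_532_105 gave 4.29, 4.43 and 2.77 in sham and 4.83, 5.47 and 5.33 in SAH, a difference of 1.38 (SE 0.43, 2.61-fold, limma adjusted p = 0.272), or 0.85 without sham replicate 3. Its run is CCTCTCTT, without CCTCC. At the other end, rclstr_50770_305_14 was the steadiest of the 300. Its 6 levels lay within 0.18 of each other (5.24, 5.19 and 5.31 in sham, 5.36, 5.37 and 5.29 in SAH).

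Simple repeats had class medians of 4.85, 4.99 and 4.35 in sham and 4.95, 5.16 and 5.11 in SAH. Their median difference was 0.42, with 24 of the 31 positive, and it was 0.26 without sham replicate 3, on which 22 of them were lowest. All SAH arrays lay above all sham arrays in 2 of the 31 (6.45%), beside 9.24% of all probes tested. None was 2-fold higher or lower at an unadjusted p under 0.05, with a background of 5.74% and 1.14%. The CA repeat rclstr_14307_2484_13 gave 6.50, 6.74 and 6.10 in sham and 6.59, 7.08 and 6.93 in SAH, a difference of 0.42 (SE 0.30), and 0.25 without sham replicate 3. Sham replicate 2 lay above SAH replicate 1. A group of 3 simple repeats with runs of TG, led by rclstr_52114_125_2178641, had a median difference of -0.26, and all 3 were highest on sham replicate 1 and lowest on SAH replicate 3.

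The gap between dispersed and C/T-rich members separates sham replicate 3 from the other arrays. The median level of the dispersed members minus that of the C/T-rich members was 1.09, 1.44 and -0.44 in sham and 1.57, 1.53 and 1.58 in SAH. This difference is taken within each array and does not depend on a scaling that shifts all levels of an array together. The share of all probes well above background was 29.8%, 39.8% and 25.6% on the sham arrays and 34.9%, 33.3% and 52.2% on the SAH arrays, lowest on sham replicate 3. Its part in these results was not tested.

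Differences also went with the last number of the probe name. All 38 members with a last number from 100 to 999 had a positive difference, with a median of 1.09. At 2-fold and unadjusted p under 0.05, 26 of them were higher, beside 5.74% of all probes tested. All 41 with 1000 to 9999 also had a positive difference, with a median of 1.11, and 28 of them were higher by the same rule. The 16 with at least 10000 had a median of 0.91, with 14 positive and 3 higher by that rule, so the differences did not go on rising with the number. Members with a last number below 10 had a median of -0.14, and those with 10 to 99 a median of 0.02. Without sham replicate 3 the medians, from the lowest to the highest numbers, were 0.03, 0.09, 0.56, 0.56 and 0.39. Among cluster probes outside the 300 that were tested, the median was 0.96 for last numbers from 100 to 999 (124 of 142 positive) and 0.07 from 1000 to 9999 (99 of 186 positive). Those with 10 to 99 had a median of -0.15 and those below 10 a median of -0.23. At 2-fold and unadjusted p under 0.05, 62 of the 142 probes outside the 300 were higher and 0 lower. Of the 186, 40 were higher and 2 lower. With 10 to 99, 641 of 10863 were higher and 116 lower, and below 10, 158 of 4879 were higher and 70 lower.

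Few members could be tied to a gene. At least 30 bases shared with a window's last 50 bases, which follow a gene start, were found for 27 members and 356 of all cluster probes, on the same strand for 16 and on the opposite strand for 19 of the 27. Most of these were dispersed members that matched several genes. A single window matched rclstr_37971_6_48, a C/T-rich member that shared 47 bases with the start of RT1-Db1, a gene of the rat major histocompatibility complex class II beta chain that presents peptides to helper T cells (window chr20:4560113-4560412, minus strand, GRCr8). It was named after its values were seen. By the same rule a single window also matched rclstr_53756_204_7033 (Rpl35al6), rclstr_66582_162_732 (Hmgb1l1), rclstr_54300_14_4428 (LOC134479677), rclstr_54478_457_128 (Tlr6) and rclstr_48372_487_69 (LOC102549170). The levels of these are not described here. The levels of rclstr_37971_6_48 were 5.22, 5.41 and 4.89 in sham and 5.40, 5.77 and 5.63 in SAH, and the groups overlapped, with sham replicate 2 just above SAH replicate 1. The difference was 0.43 (SE 0.28, limma adjusted p = 0.46), or 0.29 without sham replicate 3.

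Control probes for a pair of genes used in every cell gave a check on the scaling. The probe near the 3′ end of Gapdh, a glycolytic enzyme, was at 4.52, 4.37 and 4.75 in sham and 4.48, 4.58 and 4.21 in SAH, a difference of -0.12 (exact permutation test, two-sided, p = 0.5, where 3 against 3 cannot go below 0.1). The probe near the 3′ end of Pgk1, also a glycolytic enzyme, differed by 0.67 (exact p = 0.2) and overlapped between groups. The probes near the 5′ ends differed by 0.09 for Gapdh (exact p = 0.8) and by -0.05 for Pgk1 (exact p = 0.8), each opposite in sign to the 3′ probe of the same gene. The control differences are given with sham replicate 3 included only.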

How the data were processed

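Plasma exosome RNA of 3 SAH and 3 sham rat samples was measured on 6 single-colour Agilent arrays. Images were read with Agilent Feature Extraction 10.7.1.1, per the submitters' processing notes, under protocol GE1_107_Sep09, per the file headers. The deposited scanner values are spot intensity, and the processed signal is background-subtracted and detrended within an array but not scaled to other arrays, as the headers state. A value table deposited by the authors holds log2 values, judged against the scanner signal (Pearson correlation 0.990 to 0.999, column medians 3.10 on all arrays). Its making is not described in the sources used here.

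Outlier spots were left out and log2 values averaged per probe. Each array's 75th percentile over the 10460 kept cluster probes was subtracted. Probes well above background on all 3 arrays of a group (17158) were tested with limma 3.58.1 in R 4.3.3 (no covariate, two-sided, Benjamini-Hochberg, threshold 0.05), after a run on simulated data. No noncontrol spot was saturated. P-values measure the spread between samples, and the number of arrays limits precision.

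Members and lists were chosen with earlier results of these data known. Named by rule were the 10 brightest members, the 5 with the smallest p in each direction, the brightest of each shared sequence group of at least 5, the largest and smallest SD, and the ranks at the edge. Others shown were chosen after their values were seen. The planned protein matches, with their gene groups and cell type markers, were not run, since no protein sequences were used here. RefSeq windows, with 419 miRNA hairpins, are those of assembly GRCr8.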

Additional observations from a re-analysis of the deposited data

How the results depend on the processing

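Of 300 members, at least 288 remained when an array was left out, and 297 to 300 under other background corrections, scalings, the deposited table, or detection on 5 arrays; a scaling that shifts a whole array cannot change the ranking. The members' adjusted calls of 0 became 82 with normexp, 0 to 8 when an array was left out and 5 with the replicate number as a block. The 82 of 300 with normexp stand beside 2.54% of all probes tested, a share that the members exceed. The 8, without sham replicate 2, stand beside 3.73% of all probes tested, and the 5 beside 2.23%, shares that the members do not exceed. Whether the replicate number pairs the samples is not settled. Same-numbered deviations from the group means correlated at -0.02, 0.23 and -0.14, and the other pairs from -0.21 to 0.23. With 3 arrays per group these values cannot decide it. The screening count of 70 was 25 with quantile normalization, 46 with array weights and 5 to 113 when an array was left out. The share over all probes tested is not given for these settings, so these counts stand without a background. The median difference of 0.40 was 0.62 with normexp, 0.60 with the percentile over all probes, 0.60 with median scaling, 0.10 with quantile normalization and 0.26 to 0.55 when an array was left out.

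C/T-rich members, at -0.10, were at 0.14, 0.10, 0.10, -0.40 and -0.26 with normexp, the percentile over all probes, median scaling, quantile normalization and the deposited table, and at -0.17 to 0.047 when an array was left out. Simple repeats, at 0.42, were at 0.10 with quantile normalization. The median over all tested probes ran from -0.27 to 0.04 over the settings. Members in shared groups of at least 5 numbered 6 with a shared run of 30 bases, against 27 with 20 and 38 with 16; the stricter run joins fewer probes.

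Among the 22 named probes, 375 of 396 alternative values kept direction and side of the threshold. Another 15 passed it: 4 without sham replicate 2, 4 with the replicate block and 7 with normexp. The 6 reversals were rclstr_39676_93_26 (0.46 with quantile normalization, 0.81 in the deposited table), rclstr_50751_562_26 (-0.37 with quantile normalization, -0.14 without sham replicate 3, in a range up to 0.97 when an array was left out) and rclstr_50770_305_14 (-0.28 with quantile normalization, -0.12 in the deposited table). Class limits of 7 or 10 bases for C/T runs and 5 or 20 windows, chosen after seeing the data, gave 171 or 154 C/T-rich and 68 or 49 dispersed members. Otherwise the cause was not tested.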
